A study of Mus musculus with 6 samples.

Results

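Hopx and 8 core markers of neural stem cells were followed across 6 RNA libraries of mouse neurospheres. The genes were taken by symbol from a table of 14327 genes: Hopx, Nes, Vim, Gfap, Sox2, Sox9, Fabp7, Prom1 and Msi1. All 9 were in the table, and all 9 had a mean of at least 1 FPKM over the 6 libraries, the level set for testing, as did 11596 genes in all. FPKM is the number of sequenced fragments scaled to transcript length and to library size. Hopx was picked because its values were higher in the cKO-labelled libraries, so its difference between the groups is described without a test. The other 8 genes were chosen as identity markers of radial glia and neural stem cells.

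Neurospheres are floating clusters of neural stem and progenitor cells. These had been grown from the hippocampus of mice at postnatal day 0, as dissociated cells in DMEM-F12 medium with B27, N2, EGF and bFGF. The wild-type (WT) group held 3 libraries and the group labelled as conditional knockout (cKO) of Slc22a17 also 3. Slc22a17 encodes a membrane receptor that takes up the iron carrier lipocalin 2. The labels name neither the Cre driver nor the deleted part of the gene. They also do not say whether libraries of 1 group came from separate animals or cultures, so p-values cover only how far these libraries differ from each other, and that spread may be technical.

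Radial glia are the stem cells of the developing brain, and some persist in the dentate gyrus of the hippocampus as adult neural stem cells. They share the intermediate filaments, transcription factors and lipid carriers of the astrocyte lineage, and the same cells can be quiescent or dividing. Hopx encodes a small homeodomain protein that does not bind DNA itself and acts through partners such as serum response factor and histone deacetylases. It is known as a marker of quiescent radial glia-like cells in the dentate gyrus and of outer radial glia in the human cortex.

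The transcript of the targeted gene was present in every library. Slc22a17 measured 181, 169 and 204 FPKM in WT replicates 1, 2 and 3, against 164, 166 and 187 FPKM in the cKO-labelled libraries, so the groups overlapped and the label could not be checked by loss of the transcript. Summed FPKM of the Y-linked genes Ddx3y and Eif2s3y was 0.10 and 0.07 in WT replicates 1 and 2, 25.9 in WT replicate 3, and 43.8 to 51.2 in the cKO-labelled libraries. WT replicate 3 therefore stood apart from the other WT libraries. FPKM carries no read total, so the depth behind each value is unknown.

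Hopx (gene identifier 74318) lies on the minus strand of chromosome 5, from 77086986 to 77115123 in GRCm38. RefSeq gives it more than 1 start, and the sequences before its start sites are shown because the table holds a single value per gene and does not say which start was used. The antisense gene Hopxos overlaps Hopx in the GENCODE annotation, and since strand use in the counting is not stated, their reads cannot be told apart. The same holds for antisense genes that overlap Prom1 (Gm16401) and Msi1 and for Gm26668 over Gfap. Each window is the 250 bases before a start on the minus strand, printed 5′ to 3′. Capitals mark matches to any of 4 motifs searched on both strands: the SOX core AACAAT, the RBPJ core TGGGAA, the STAT motif TTCNNNGAA and the NFI half-site TTGGCA.
Hopx, distal start (chr5:77115124-77115373): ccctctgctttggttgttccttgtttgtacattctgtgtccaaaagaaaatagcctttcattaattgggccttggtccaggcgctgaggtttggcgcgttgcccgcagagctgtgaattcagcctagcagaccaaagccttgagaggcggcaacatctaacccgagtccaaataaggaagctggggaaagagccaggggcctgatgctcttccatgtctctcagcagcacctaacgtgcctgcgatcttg
Hopx, proximal start (chr5:77095268-77095517): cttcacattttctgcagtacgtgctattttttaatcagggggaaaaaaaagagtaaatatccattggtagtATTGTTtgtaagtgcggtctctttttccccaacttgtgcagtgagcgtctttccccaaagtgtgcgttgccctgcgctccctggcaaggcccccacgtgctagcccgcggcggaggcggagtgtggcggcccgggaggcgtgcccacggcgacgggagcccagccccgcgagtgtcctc
The proximal window held 18 CpG dinucleotides and the distal window 8, where the median over 14659 windows of genes in the table was 15. The proximal window held 1 match to the SOX core, 179 bases before the start, a motif found in 5.42% of all windows. The distal window held no match to these 4 motifs. A match of letters is a description of the window only.

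Hopx was higher in every cKO-labelled library than in any WT library. It measured 5.65, 4.34 and 7.92 FPKM in WT replicates 1, 2 and 3, against 17.9, 14.2 and 22.1 FPKM in the same order for cKO. The lowest of the cKO-labelled libraries was thus 1.79 times the highest WT library, which was WT replicate 3. The WT mean was 5.97 ± 1.81 FPKM and the mean of the cKO-labelled libraries 18.1 ± 3.96 FPKM (SD, n = 3 each), a ratio of 3.03. On the log2(FPKM + 1) scale, which understates differences of genes with low values, the difference was 1.46. A ratio of at least 3 was reached by 0.0259% of the 11596 tested genes, and groups with no overlap and higher values in the cKO-labelled libraries were found in 7.07%. These values chose the gene and are a description. In bulk RNA, more cells of a type cannot be told apart from more RNA per cell.

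The size of the Hopx difference varied with the libraries used. Leaving out WT replicate 2 gave 1.29 and leaving out cKO replicate 3 gave 1.32. The value was 1.62 when cKO replicate 2 was dropped and 1.66 when WT replicate 3 was. Set against WT replicate 3 alone, it was 1.08. In a fit adjusted for the Y-linked share of each library it was 0.44. That adjustment rests mainly on WT replicate 3, whose Y-linked sum was 53.4% of the mean of the cKO-labelled libraries. It therefore reaches beyond the range that the WT libraries cover. Within WT, the library with Y-linked transcripts had the highest Hopx value, and the part of sex or of any other feature of these libraries in the difference was not tested. Sex is absent from the labels, and WT replicate 3 is the single WT library with Y-linked transcripts, so sex and group cannot be told apart here.

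The other 8 markers showed no such separation. None passed an adjusted p of 0.05 in limma, a linear model fitted across all tested genes, and none had an unadjusted p under 0.05. Over all tested genes 0.0259% passed the adjusted and 12.3% the unadjusted threshold. For all 8 genes the values of the groups overlapped, while 17.2% of tested genes had groups with no overlap in either direction. Of the 8, 3 had a higher and 5 a lower mean log2 value in the cKO-labelled libraries. Their differences ranged from -0.16 to 0.13 with a median of -0.060, beside a median of -0.015 over all tested genes.

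**Figure D1:**
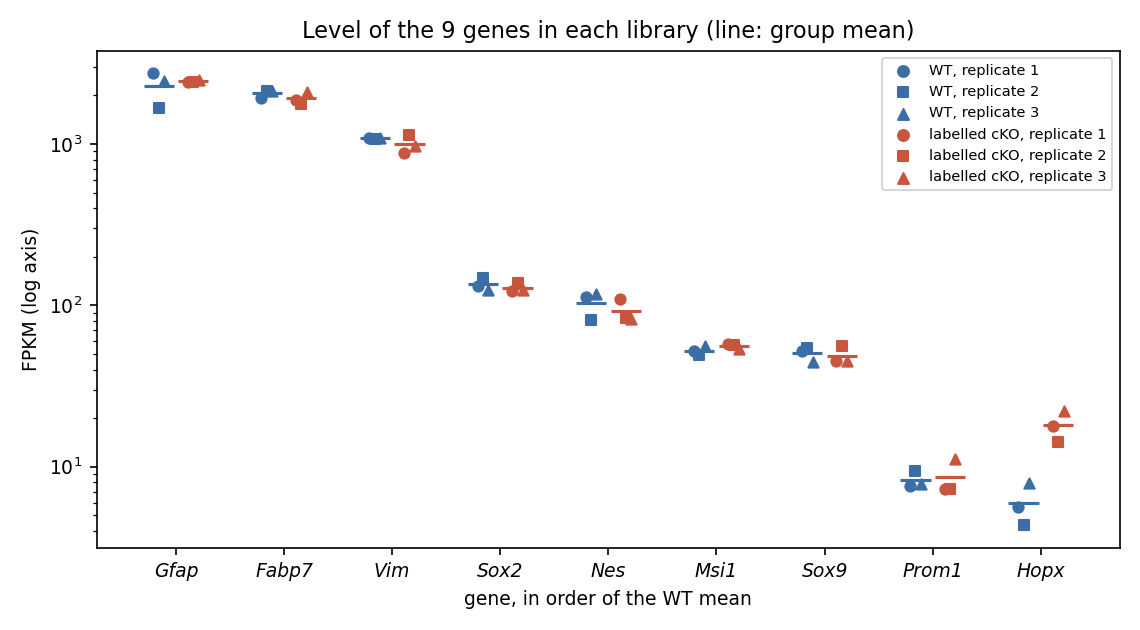
FPKM (log axis) of the 9 genes in each of the 6 libraries, with 1 point per library, shape by replicate number, colour by group, and a line at each group mean. Hopx alone has all 3 cKO-labelled libraries, at 14.2 to 22.1 FPKM, above all 3 WT libraries, at 4.34 to 7.92 FPKM.

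The intermediate filaments build the cytoskeleton of radial glia. Gfap, the filament of astrocytes and of adult radial glia-like stem cells (chromosome 11, 102887336 to 102897200), was the most abundant of the 9 genes. It measured 2741, 1661 and 2442 FPKM in WT replicates 1, 2 and 3, against 2408, 2416 and 2501 FPKM in the same order for cKO. WT replicate 2 was the lowest library and WT replicate 1 the highest, so the cKO-labelled libraries lay inside the WT range. The means were 2281 ± 558 and 2442 ± 51.2 FPKM (SD, n = 3 each), with a difference of 0.13 on the log2 scale (SE 0.18, adjusted p = 0.823 in limma). Without WT replicate 2 the difference was -0.084.

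Nes encodes nestin, the filament protein by which neural progenitors are most often recognised (chromosome 3, 87971093 to 87980451). It measured 112, 80.7 and 118 FPKM across WT against 110, 84.0 and 82.3 FPKM across the cKO-labelled libraries. WT replicate 2 and cKO replicates 2 and 3 were low, and WT replicates 1 and 3 and cKO replicate 1 were high, so Nes split each group. The means were 104 ± 20.03 and 92.1 ± 15.6 FPKM (difference -0.16, SE 0.16, adjusted p = 0.733). The difference of Nes ranged from -0.33 without WT replicate 2 (unadjusted p = 0.030, adjusted p = 0.543) to -0.058 without WT replicate 3. With WT replicate 3 as the single WT library it was -0.37. In a fit adjusted for the Y-linked share the difference was -0.66 (adjusted p = 0.921).

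Vim encodes vimentin, which pairs with nestin in filaments of immature glia (chromosome 2, 13574311 to 13582826). The WT libraries lay close together at 1097, 1068 and 1094 FPKM, and the cKO-labelled libraries were at 882, 1139 and 969 FPKM. Both the highest and the lowest library were thus labelled cKO. The coefficient of variation was 1.44% in WT and 13.1% in the cKO-labelled libraries, and the difference of the means was -0.13 (SE 0.11, adjusted p = 0.664). Without cKO replicate 2 it was -0.23 (adjusted p = 0.378).

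The ratio of Gfap to Nes, both in FPKM, was 24.5, 20.6 and 20.7 in WT and 21.9, 28.8 and 30.4 in the cKO-labelled libraries. The ratio of Vim to Nes was 9.79, 13.2 and 9.27 in WT and 8.01, 13.6 and 11.8 in the cKO-labelled libraries. Neither ratio separated the groups.

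Sox2 and Sox9 are transcription factors of the SOX family with roles in keeping stem cells undifferentiated and in specifying glia. Sox2 (chromosome 3, 34649995 to 34652461) measured 132, 148 and 125 FPKM across WT against 123, 137 and 124 FPKM across the cKO-labelled libraries. Its means were 135 ± 11.8 and 128 ± 7.77 FPKM (difference -0.073, SE 0.078, adjusted p = 0.761). Sox2 lies within the annotated span of the noncoding gene Sox2ot on the same strand, whose reads cannot be told apart where exons overlap.

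Sox9 (chromosome 11, 112782210 to 112787757) measured 52.2, 54.6 and 44.5 FPKM across WT against 45.3, 55.7 and 45.5 FPKM across the cKO-labelled libraries. Its means were 50.4 ± 5.25 and 48.8 ± 5.94 FPKM (difference -0.047, SE 0.10, adjusted p = 0.896). For both genes the replicate numbered 2 was the highest of its group. In a fit adjusted for the Y-linked share the difference of Sox9 was 0.43 (adjusted p = 0.921) and that of Sox2 0.21 (adjusted p = 0.921), each with the opposite sign. The ratio of Sox2 to Sox9 stayed between 2.46 and 2.81 in the 6 libraries.

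Fabp7, the brain lipid-binding protein, carries fatty acids in radial glia (chromosome 10, 57784923 to 57788450). It measured 1936, 2142 and 2136 FPKM across WT against 1886, 1768 and 2096 FPKM across the cKO-labelled libraries. The lowest pair of libraries was labelled cKO, while cKO replicate 3 lay between WT replicates 1 and 3. The means were 2071 ± 117 and 1917 ± 166 FPKM (difference -0.11, SE 0.11, adjusted p = 0.722).

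Prom1 encodes prominin 1 (CD133), a protein of membrane protrusions used to sort stem cells and also carried by ependymal cells (chromosome 5, 43993621 to 44102047). It was the least abundant of the 8 markers, measuring 7.59, 9.39 and 7.78 FPKM across WT against 7.32, 7.27 and 11.2 FPKM across the cKO-labelled libraries. Only cKO replicate 3 stood above the WT range. The means were 8.25 ± 0.99 and 8.58 ± 2.23 FPKM (difference 0.032, SE 0.15, adjusted p = 0.961), and without cKO replicate 3 the difference was -0.15 (adjusted p = 0.670). Against WT replicate 3 alone it was 0.10.

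Msi1 encodes Musashi 1, an RNA-binding protein that controls translation in stem cells (chromosome 5, 115359059 to 115455698). It measured 52.5, 48.9 and 55.6 FPKM across WT against 58.0, 56.7 and 53.3 FPKM across the cKO-labelled libraries. Its SD of log2 values within groups, pooled over both groups, was the smallest of the 9 genes. The means were 52.3 ± 3.35 and 56.0 ± 2.41 FPKM (difference 0.097, SE 0.065, adjusted p = 0.597), and the groups overlapped only between WT replicate 3 and cKO replicate 3. Against WT replicate 3 alone the difference of Msi1 was 0.0084, and without WT replicate 2 it was 0.050.

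The intervals show how large a difference the limma fit without the Y-linked share leaves room for, given the spread within groups. On the log2(FPKM + 1) scale converted to percent of the WT level, the 95% interval of limma ran from 96.5% to 119% for Msi1, from 84.0% to 108% for Sox2 and from 82.4% to 114% for Sox9. It ran from 77.2% to 108% for Vim and from 78.1% to 109% for Fabp7. The intervals were wider for Nes, at 69.7% to 115%, for Gfap, at 82.6% to 145%, and for Prom1, at 80.3% to 130%. A 2-fold difference in either direction lay outside each of these 8 intervals. In the fit adjusted for the Y-linked share, the log2 differences of Sox9 (0.43), Nes (-0.66), Sox2 (0.21) and Msi1 (-0.079) lay outside their intervals. The intervals therefore do not cover what that adjustment changes.

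**Figure D2:**
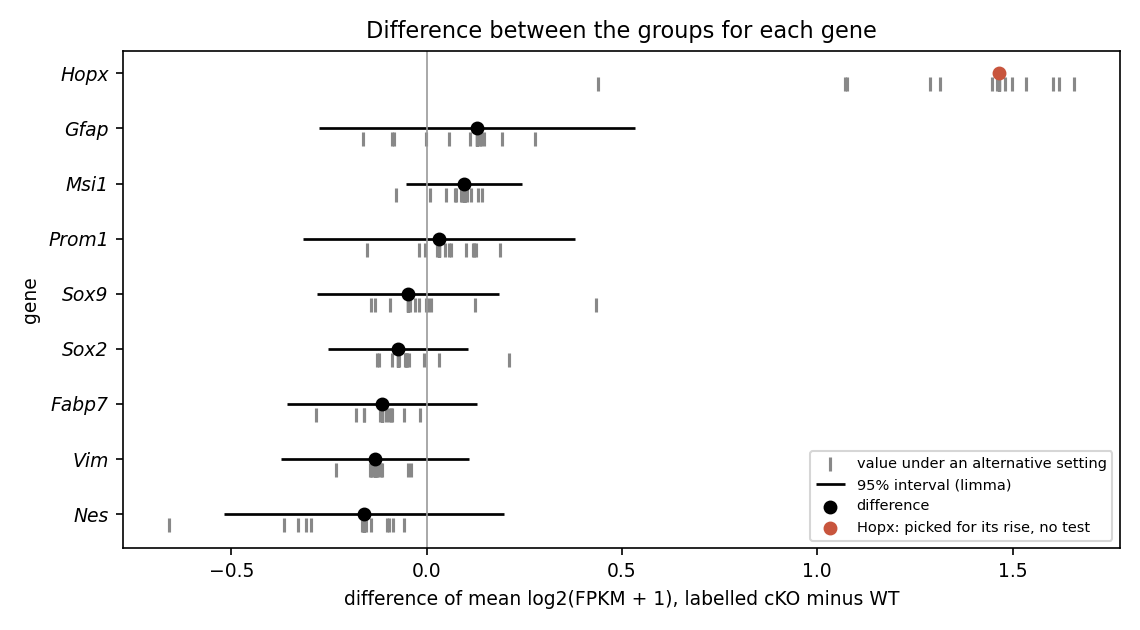
Difference of mean log2(FPKM + 1), labelled cKO minus WT, for each gene, with the 95% limma interval for the 8 tested genes and a grey tick for the value under each of 18 alternative settings. All 8 intervals include 0, Hopx (1.46) has no interval because it was picked for its difference, and its lowest tick, at 0.44, is the fit adjusted for the Y-linked share.

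FPKM is scaled to length, so levels can be set side by side within a library, with the reservation that the transcript lengths used are not given. In WT the order of the mean levels ran from Gfap through Fabp7, Vim, Sox2, Nes, Msi1, Sox9 and Prom1 to Hopx. Over all 6 libraries Gfap and Fabp7 overlapped, as did Msi1 and Sox9. Vim, Sox2 and Nes each occupied a range that no neighbour in the order reached. In mean level Gfap, Fabp7 and Vim stood at percentile 99.8 or higher of tested genes. Sox2 stood at percentile 95.7, Nes at 93.9, Msi1 at 87.5, Sox9 at 86.1, Hopx at 49.2 and Prom1 at 38.3.

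The bottom of the order was where the groups differed in arrangement. Hopx reached 74.4%, 46.2% and 102% of the Prom1 level across WT replicates, against 245%, 195% and 198% across cKO replicates. Hopx thus ranked last of the 9 genes by WT mean and above Prom1 by the mean of the cKO-labelled libraries. Relative to Gfap, the most abundant member, Hopx was at 2.06, 2.61 and 3.24 FPKM per 1000 FPKM of Gfap in WT and at 7.44, 5.88 and 8.85 in the cKO-labelled libraries. These ratios contain the Hopx values that chose the gene and add no separate evidence.

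Together the 9 genes made up 1.26% to 1.47% of all FPKM in the WT libraries and 1.34% to 1.40% in the cKO-labelled libraries. Most of this came from Gfap, Fabp7 and Vim. The SD of log2 values within groups was 0.34 for Hopx, 0.27 for Gfap, 0.26 for Nes and 0.25 for Prom1, against a median of 0.098 over all tested genes. It was 0.078 for Msi1.

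The genes with a library profile nearest to Hopx were Rpe65, Dmrt3, Sept4, Glycam1 and Rnase1. Likeness was the root mean square difference, over the 6 libraries, between profiles of log2(FPKM + 1) centred on their mean, and the median over all tested genes was 0.80. Rpe65, the retinoid isomerase of the visual cycle, was nearest at 0.26. It measured 1.75, 0.94 and 2.19 FPKM across WT against 4.65, 2.54 and 6.15 FPKM across the cKO-labelled libraries, with the same order of libraries as Hopx. The next was Dmrt3, a transcription factor with a DM domain, at 0.41, with 1.92 to 2.82 FPKM in WT and 3.44 to 6.19 FPKM in the cKO-labelled libraries.

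Sept4, a septin of the cytoskeleton, was the most abundant of these 5 genes (0.42). It measured 144, 85.6 and 156 FPKM across WT against 217, 156 and 236 FPKM across the cKO-labelled libraries. WT replicate 3 was as high as cKO replicate 2, so the groups overlapped. Glycam1, a mucin-like glycoprotein, and Rnase1, a secreted ribonuclease, were at 0.42 and 0.43. Of the other 8 markers Gfap was nearest to Hopx at 0.71 and Vim farthest at 0.86. These genes were chosen for their likeness on the same libraries, which is a description.

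**Figure D3:**
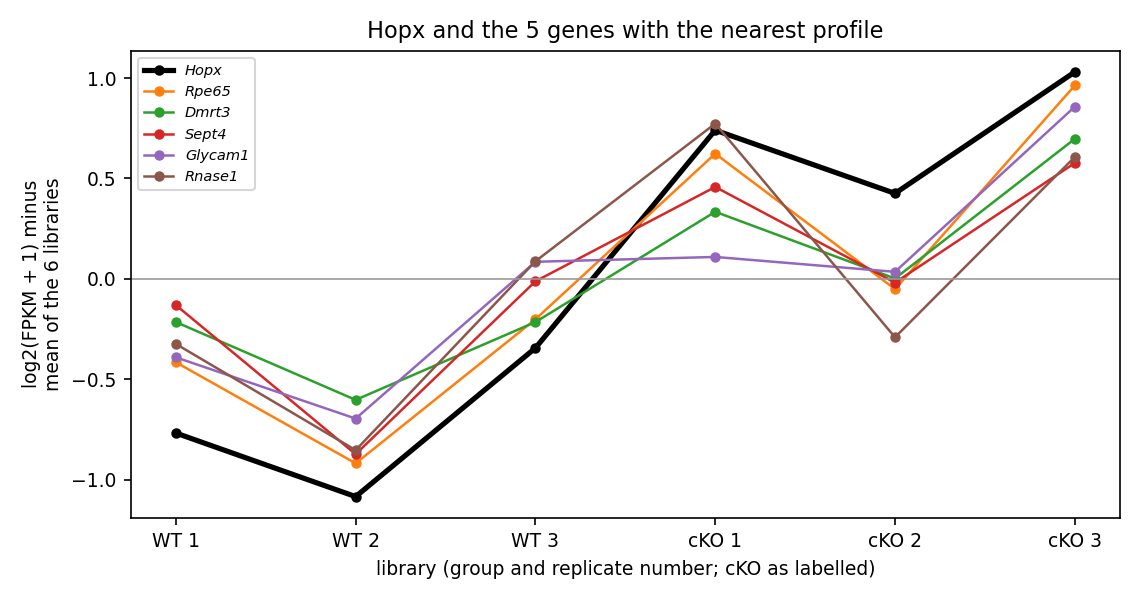
Values of log2(FPKM + 1) minus the mean of the 6 libraries, by library, for Hopx (thick black line) and the 5 tested genes with the smallest root mean square difference from it, 0.26 to 0.43. In each line WT replicate 2 is the lowest point and cKO replicate 1 or 3 the highest.

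Of the neighbours of Hopx on chromosome 5, none that was tested passed. The 3 nearest genes of the table on the lower-coordinate side were Arl9, Srp72 and Paics, and on the other side Rest, Noa1 and Polr2b. Rest, a repressor of neuronal genes 150 kb away, measured 4.03, 4.41 and 3.28 FPKM across WT against 3.30, 3.17 and 2.97 FPKM across the cKO-labelled libraries (difference -0.24, adjusted p = 0.407 in limma). Srp72, 87.1 kb away, averaged 38.8 ± 1.04 and 38.3 ± 1.42 FPKM (adjusted p = 0.922). Arl9, a small GTPase 76.0 kb away, was below the level for testing. It measured 0.31, 0.47 and 0.31 FPKM across WT against 1.10, 0.77 and 0.77 FPKM across the cKO-labelled libraries. Higher values with no overlap were found in 7.07% of tested genes, and the share below the level for testing was not counted. The other 3 neighbours had adjusted p-values of 0.869 to 0.971.

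Other genes of radial glia and stem cells did not pass either. Of 31 entries in this list 29 were tested, 9 had a higher and 20 a lower mean in the cKO-labelled libraries, and the median difference was -0.042, beside 44.5% higher and a median of -0.015 over all tested genes. Slc1a3, the glutamate carrier of radial glia, averaged 536 ± 25.2 and 520 ± 15.2 FPKM (adjusted p = 0.859). The member of lowest p was Lfng, a glycosyltransferase that modifies Notch receptors, measuring 122, 114 and 125 FPKM across WT against 93.5, 101 and 98.1 FPKM across the cKO-labelled libraries (difference -0.30, adjusted p = 0.181). The Notch effector Hes1 averaged 11.9 ± 0.49 and 9.73 ± 1.59 FPKM (adjusted p = 0.353).

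Genes known from outer radial glia, the cell type that HOPX marks in the human cortex, were divided. Of 12 tested genes 7 had higher and 5 lower means, none passed, and the median difference was 0.074 while the mean was -0.056. Fam107a, an actin-associated protein of these cells, measured 77.9, 47.6 and 78.7 FPKM across WT against 93.7, 98.9 and 102 FPKM across the cKO-labelled libraries (difference 0.56, adjusted p = 0.267). Ttyh1, a membrane protein of radial glia, averaged 362 ± 19.97 and 424 ± 10.8 FPKM (adjusted p = 0.257). Tenascin C (Tnc), a matrix protein of the stem cell niche, had a lower mean, with 4.15 ± 0.77 and 2.57 ± 0.52 FPKM (adjusted p = 0.237). Slco1c1, a thyroid hormone carrier, averaged 9.46 ± 4.66 and 3.03 ± 1.32 FPKM (adjusted p = 0.244), with WT replicate 3 at 4.13 FPKM inside the range of the cKO-labelled libraries. Groups with no overlap were seen in 3 of the 12 genes as higher and in 1 as lower, beside 7.07% and 10.2% of all tested genes.

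Genes linked to quiescent stem cells were likewise divided. Of 23 tested genes 12 had higher and 11 lower means, none passed, and the median was 0.045. It turned to -0.013 when WT replicate 3 was left out and to -0.040 when cKO replicate 2 was. Averaged over the list, the cKO-labelled libraries were at 0.043 to 0.086 relative to the WT mean. The WT libraries were at -0.035 to 0.038, so the groups were apart by a narrow margin. Of the 23 genes, 4 had groups with no overlap as higher and 3 as lower, beside 7.07% and 10.2% of all tested genes. Sparcl1, a secreted matricellular protein, measured 528, 470 and 580 FPKM across WT against 781, 661 and 829 FPKM across the cKO-labelled libraries (difference 0.52, adjusted p = 0.189). The glycolytic enzyme Aldoc averaged 1013 ± 149 and 1337 ± 72.1 FPKM (adjusted p = 0.248). Vcam1, an adhesion protein of quiescent niche cells, was at 21.7 ± 0.62 and 18.7 ± 0.65 FPKM (adjusted p = 0.242).

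Genes of cycling cells formed a separate list, and all 24 tested had lower means in the cKO-labelled libraries, with a median of -0.38. None passed over all genes, while 19 had an unadjusted p under 0.05 in limma. Lower means were found in 55.5% of all tested genes, and lower means with an unadjusted p under 0.05 in 7.82%. The median lay between -0.49 and -0.23 under the 18 alternative settings. Top2a, the topoisomerase of dividing cells, measured 57.4, 69.9 and 58.9 FPKM across WT against 43.9, 37.3 and 51.1 FPKM across the cKO-labelled libraries (difference -0.49, adjusted p = 0.235). Averaged over the list, cKO replicates 1 to 3 were at -0.38, -0.55 and -0.13 relative to the WT mean, and WT replicates at -0.10, 0.11 and -0.0076. Within the cKO-labelled libraries replicate 2 had the lowest value of Hopx and of the cycling mean, while within WT replicate 2 had the lowest Hopx value and the highest cycling mean. The part of cell division in the Hopx difference was not tested.

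Astrocyte markers, which overlap with those of quiescent stem cells, had higher means for 10 of 14 genes with a median of 0.16, and none passed. Over all tested genes 44.5% had higher means. Of the 14, 7 were higher and 1 lower with an unadjusted p under 0.05 in limma, beside 515 and 907 of 11596 tested genes. Groups with no overlap were seen in 6 as higher and in 1 as lower, beside 7.07% and 10.2% of all tested genes. Gjb6, the gap junction protein connexin 30, measured 15.4, 12.2 and 13.1 FPKM across WT against 21.1, 24.7 and 21.8 FPKM across the cKO-labelled libraries (difference 0.69, adjusted p = 0.103). Acsl6, a fatty acid activating enzyme, averaged 139 ± 6.55 and 182 ± 14.8 FPKM (adjusted p = 0.176), and the hyaluronan receptor Cd44 averaged 17.8 ± 1.06 and 13.4 ± 0.99 FPKM (adjusted p = 0.176). The summed FPKM of the 14 markers was 4875 to 5178 in WT and 5380 to 6172 in the cKO-labelled libraries. Against WT replicate 3 alone the median was 0.23, with 11 of 14 genes higher. The part of these markers in the Hopx difference was not tested.

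A list drawn up as Hopx partners held Hdac2, Hdac3, Epc1, Smad1, Smad4, Smad5 and Axin2, while serum response factor was counted with its targets. Whether these genes act with Hopx in these cells was not tested. Each of the 7 was lower on average in the cKO-labelled libraries (median -0.11), as were 55.5% of all tested genes, and none passed. Of the 7, 2 were higher without WT replicate 3, without cKO replicate 2 or adjusted for the Y-linked share. The median stayed between -0.14 and -0.084 under the 18 alternative settings. Averaged over these genes, the cKO-labelled libraries were at -0.18 to -0.066 relative to the WT mean and the WT libraries at -0.0082 to 0.011. Hdac2, a histone deacetylase, averaged 61.3 ± 2.16 and 55.2 ± 3.20 FPKM (adjusted p = 0.382), and Smad5, a transducer of BMP signals, 32.1 ± 1.14 and 28.0 ± 1.84 FPKM (adjusted p = 0.297). Among targets of serum response factor 5 of 13 tested genes had higher and 8 lower means, with a median of -0.027. Egr1, an early response transcription factor, measured 88.7, 69.0 and 69.2 FPKM across WT against 52.6, 48.8 and 48.8 FPKM across the cKO-labelled libraries (difference -0.58, adjusted p = 0.126). The early response gene Fos measured 45.5, 26.4 and 23.0 FPKM across WT against 13.1, 15.5 and 10.9 FPKM across the cKO-labelled libraries (difference -1.16, adjusted p = 0.176). Myl9, from the same list of targets, had a higher mean, with 6.14 ± 1.03 and 8.79 ± 2.88 FPKM (adjusted p = 0.440 in limma). The actins Actb and Actg1 had adjusted p-values of 0.640 and 0.951.

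Family relatives of the markers gave a median of 0.0037 and a mean of -0.019, with 9 of 17 tested genes higher, 8 lower and none past the threshold. Sox8 averaged 99.96 ± 10.5 and 105 ± 13.6 FPKM (adjusted p = 0.852), and Sox21 33.2 ± 1.36 and 38.0 ± 4.11 FPKM (adjusted p = 0.408). Fabp5, a fatty acid carrier related to Fabp7, averaged 188 ± 26.6 and 161 ± 18.7 FPKM (adjusted p = 0.490).

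**Figure D4:**
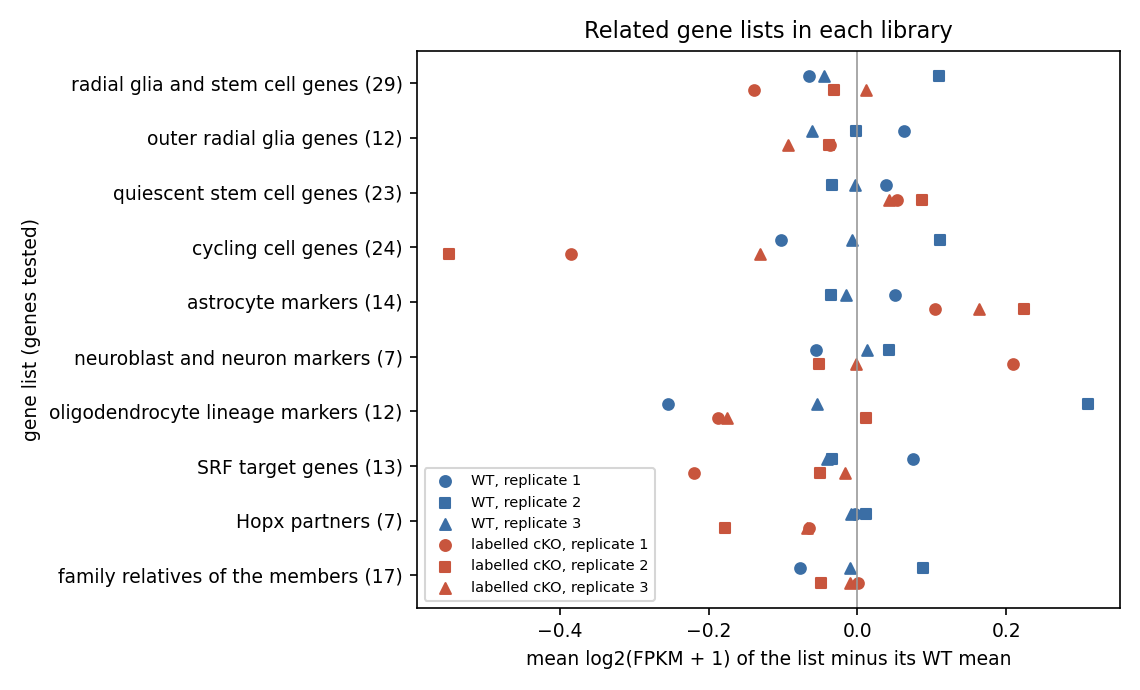
Mean log2(FPKM + 1) of each related gene list minus its WT mean, with 1 point per library, shape by replicate number and colour by group, for the 10 lists with at least 5 tested genes (number in brackets). The cycling and Hopx partner lists have all 3 cKO-labelled libraries below the WT libraries, and the astrocyte and quiescent lists all 3 above them, by the smallest margin in the quiescent list (lowest cKO-labelled 0.043, highest WT 0.038), while the other lists overlap.

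Markers of other cell types that such cultures can hold were present at different levels. Summed FPKM of 12 oligodendrocyte lineage markers was 1454 to 1876 in WT and 1374 to 1613 in the cKO-labelled libraries, mostly from Olig1 (1011 ± 193 and 934 ± 109 FPKM). Of these 3 had higher and 9 lower means (median -0.17). The 17 of 20 neuroblast and neuron markers in the table summed to 149 to 163 FPKM in WT and 143 to 171 FPKM in the cKO-labelled libraries, with Map2 (76.4 ± 3.49 and 75.6 ± 7.94 FPKM) and Sox4 (54.6 ± 2.10 and 54.7 ± 5.71 FPKM) as the most abundant (median difference -0.0019 and mean 0.052 over 7 tested genes), and Eomes, Dcx and Rbfox3 were below a mean of 1 FPKM. The 10 microglia markers summed to 14.7 to 15.8 FPKM in WT and 7.90 to 20.5 FPKM in the cKO-labelled libraries. Among them C1qa was the most abundant (5.56 ± 0.57 and 5.24 ± 2.10 FPKM), and P2ry12, Tmem119, Csf1r and Aif1 were below a mean of 1 FPKM. The 8 of 10 ependymal and choroid plexus markers in the table summed to 35.5 to 39.5 and 30.1 to 36.8 FPKM, mostly from Foxj1 (28.8 ± 1.29 and 26.2 ± 3.21 FPKM). The 5 of 11 vascular and mesenchymal markers in the table summed to 3.64 to 4.43 and 3.49 to 5.25 FPKM, mostly from the pericyte receptor Pdgfrb. The vascular and mesenchymal markers Pecam1, Cldn5, Cdh5, Col3a1, Dcn and Lum, the ependymal markers Tmem212 and Pifo, and the neuronal factors Neurog1, Neurod1 and Neurod6 were not analysed here. No analysed gene of these 5 lists was listed at 0, none passed, and their part in the values of the 9 genes was not tested.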

How the data were processed

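Per the labels' protocols, a column kit gave total RNA from 6 neurosphere samples (3 WT, 3 labelled cKO), and the BGISEQ institute made and analysed the libraries. The authors deposited FPKM values, as the header of each column states. The submitters' processing notes name Bowtie2 and the build GRCm38 (mm10). Counting tool, strand use and annotation: not given in the sources used here. Each column name matched 1 sample.

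Values were compared as log2(FPKM + 1) for the 11596 genes whose mean reached 1 FPKM (2731 were left out), with limma 3.58.1 in R 4.3.3 (intensity trend, two-sided, Benjamini-Hochberg over all tested genes, threshold 0.05). The code was tested on simulated data. FPKM carries no depth, so precision rests on the spread between 3 libraries a group. Gene positions and promoter windows are from RefSeq (GRCm38.p6), which gave windows for 7 of the 9 genes, and overlapping genes from GENCODE on the same build.

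The 9 genes, the 13 lists with 217 added entries, and the tests were chosen with earlier results of these data known. Genes named are the 9, Slc22a17, the Y-linked pair, list members of lowest p or highest level, the 5 profiles nearest to Hopx and 3 neighbours a side. Alternatives were other pseudocounts, filters, scalings, variance models, library weights, the replicate block, each library left out, the Y-linked share as a covariate, and WT replicate 3 alone. A planned list gene is not reported here. Figures were drawn with matplotlib 3.10.9.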

Additional observations from a re-analysis of the deposited data

How the results depend on the processing

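In the 17 alternatives with at least 2 libraries a group, none of the 8 tested markers passed an adjusted p of 0.05 in limma. The lowest adjusted p in limma was 0.180, for Nes with library weights. Of the 136 values for these markers 4 had an unadjusted p under 0.05 in limma, and 125 kept the direction. Other filters and variance models and the replicate block leave each difference unchanged by construction, so the direction could not turn there. Against WT replicate 3 alone that library is assumed to vary like the cKO-labelled ones, no gene passed, and the p-values say nothing about stability. Gfap turned to -0.088 with library weights, -0.16 adjusted for the Y-linked share and -0.00049 against WT replicate 3 alone, Sox2 to 0.21 and 0.032 and Sox9 to 0.43 and 0.12 in the last 2 of these settings, and Msi1 to -0.079 with that adjustment. With single libraries left out, the differences ranged from -0.084 to 0.28 for Gfap, from -0.14 to 0.012 for Sox9 and from -0.15 to 0.13 for Prom1. Gfap turned without WT replicate 2 (-0.084), Sox9 without WT replicate 2 (0.012) or cKO replicate 1 (0.0031), and Prom1 without WT replicate 1 (-0.019), WT replicate 3 (-0.0037) or cKO replicate 3 (-0.15). The cause was not tested.

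Hopx was picked for its rise and its groups did not overlap, so leaving out libraries or changing the pseudocount could not turn its direction. Other filters and variance models and the replicate block leave the difference at 1.46 by construction. The Hopx difference was positive in all 18 alternatives, which adds no separate evidence. It was 1.07 with a pseudocount of 5, which shrinks low values by construction, 1.08 against WT replicate 3 alone and 0.44 adjusted for the Y-linked share, and 1.29 to 1.66 with single libraries left out. Over all tested genes 3 passed the threshold. There were 129 with library weights, 22 with the replicate block, 0 to 10 with single libraries left out, and 0 without the filter, with quantile normalization, without the trend, with that adjustment or against WT replicate 3 alone. The cause was not tested. Replicate numbers are not said to mark shared cultures, so the libraries were not treated as pairs. Deviations from the group means correlated across genes at -0.043, 0.30 and 0.26 for same-numbered libraries. For libraries of different number the values ran from -0.40 to 0.17. Whether same-numbered libraries share an origin was not tested. With the replicate block none of the 8 tested markers passed. The 3 libraries a group limit precision, and depth is unknown.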
